A study of Rattus norvegicus with 4 samples.

Results

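The genes of the sarcomere and of related contractile proteins were followed through RNA sequencing of rat eye and rat retina. Members were found by gene symbol alone. They are the myosin heavy and light chains, troponins, tropomyosins, alpha-actinins, myomesins and myosin-binding proteins, together with a list of single genes such as the muscle actins, nebulin and desmin. This gave 54 genes of the 14485 gene names in the series, of which 53 reached a value of 1 in at least 1 library and entered the comparison, as did 13259 genes in all. Numbered symbols were allowed to end in a or b, which brought in 4 members (Myh7b, Myl6b, Myl12a and Myl12b), whereas the kinase gene Tnni3k was not taken. No row carried the symbols Acta2, Tcap or Ttn, and these genes were not analysed here.

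The samples were eye and retina of wild-type rats of the pigmented Long Evans strain, with no treatment, age or sex named in the labels. The labels list 2 technical replicates per tissue and state that RNA from 5 rats went into a pool for library preparation, so that no spread between animals can be seen. Each tissue is represented by 1 column of values, called its library here, and no difference below could be checked against replicates or given a p-value. Whether a column joins the 2 technical replicates of its tissue is not known. The values are taken as RPKM, read numbers set per length of the gene and per library size, a unit inferred from the values. The label of every sample also describes its RNA as coming from retina, although the titles and tissue labels set eye apart. The marker genes differed between the libraries: Gnat1, of rods, had 3959 RPKM in eye and 7967 in retina, whereas Krt12, of corneal epithelium, had 2318 and 0.955, and the lens gene Crygd had 30893 and 34.0. The values are taken to rest on totals of 28071917 reads in eye and 51944762 in retina, recovered from the decimals. Each was chosen between 2 candidates. The others were 56143834 in eye and 25972381 in retina, the latter fitting more of the 1500 genes first searched (331 against 301). Read numbers and intervals below depend on this choice, whereas ratios of the deposited values do not. In such bulk samples, fewer cells of a type and less RNA per cell cannot be told apart.

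A sarcomere is the contractile unit of striated muscle, in which thick filaments of myosin slide along thin filaments of actin. Calcium binds the troponin complex, which moves tropomyosin on the thin filament and lets myosin heads attach. Fast, slow, cardiac and developmental fibre types use different genes for the same part, and the extraocular muscles that move the eyeball are known for an unusual mixture of these. Smooth muscle, found in the iris, the ciliary body and vessel walls, has no sarcomeres and is switched on through phosphorylation of the myosin light chain. Non-muscle cells use related myosins, tropomyosins and alpha-actinins in their cytoskeleton.

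Most members, which include smooth and non-muscle genes, were more abundant in eye than in retina, many of them by large folds. Of the 53 members tested, 42 (79.2%) were higher in eye by a fold of 2 or more, against 17.8% of all genes tested. A single member (1 of 53, 1.89%), the cardiac myosin gene Myh6, was lower in eye by that fold, against 7.95% of all genes. The median log2 fold, log2((eye + 0.1) / (retina + 0.1)), was 4.65 over the members and -0.01 over all genes tested. With 1 added in place of 0.1, the members' median was 2.98. At a fold of 4 there were 36 members higher (67.9%, against 9.07% of all genes) and 0 lower (against 0.0905%). Few genes of any kind were lower in eye by much: 12 of the 13259 tested at a fold of 4 and 0 at a fold of 16. Of 5 retina markers, 3 were lower at a fold of 2 and 2 were not called. The low counts of lower members thus show little that is particular to the members. At a fold of 16 there were 28 members higher in eye (52.8%, against 3.31% of all genes), and at a fold of 100 there were 10 (18.9%, against 0.732%). Summed, the members had 4820 RPKM in eye and 583 in retina, or 0.922% and 0.174% of all summed values. Each library held 1 pool, so these are differences between libraries. Intervals below are exact 95% intervals (Clopper-Pearson) from the recovered reads and cover counting error only. The fold's interval lay above 1 for 48 of the 54 members and below 1 for 3. The same count was not made over all genes, so these numbers show nothing particular to the members. At this depth such an interval can exclude 1 at a small fold, as for Myl12b (1.19-fold, interval 1.13 to 1.26). With equal summed values Myl12b had its higher value in retina.

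**Figure D1:**
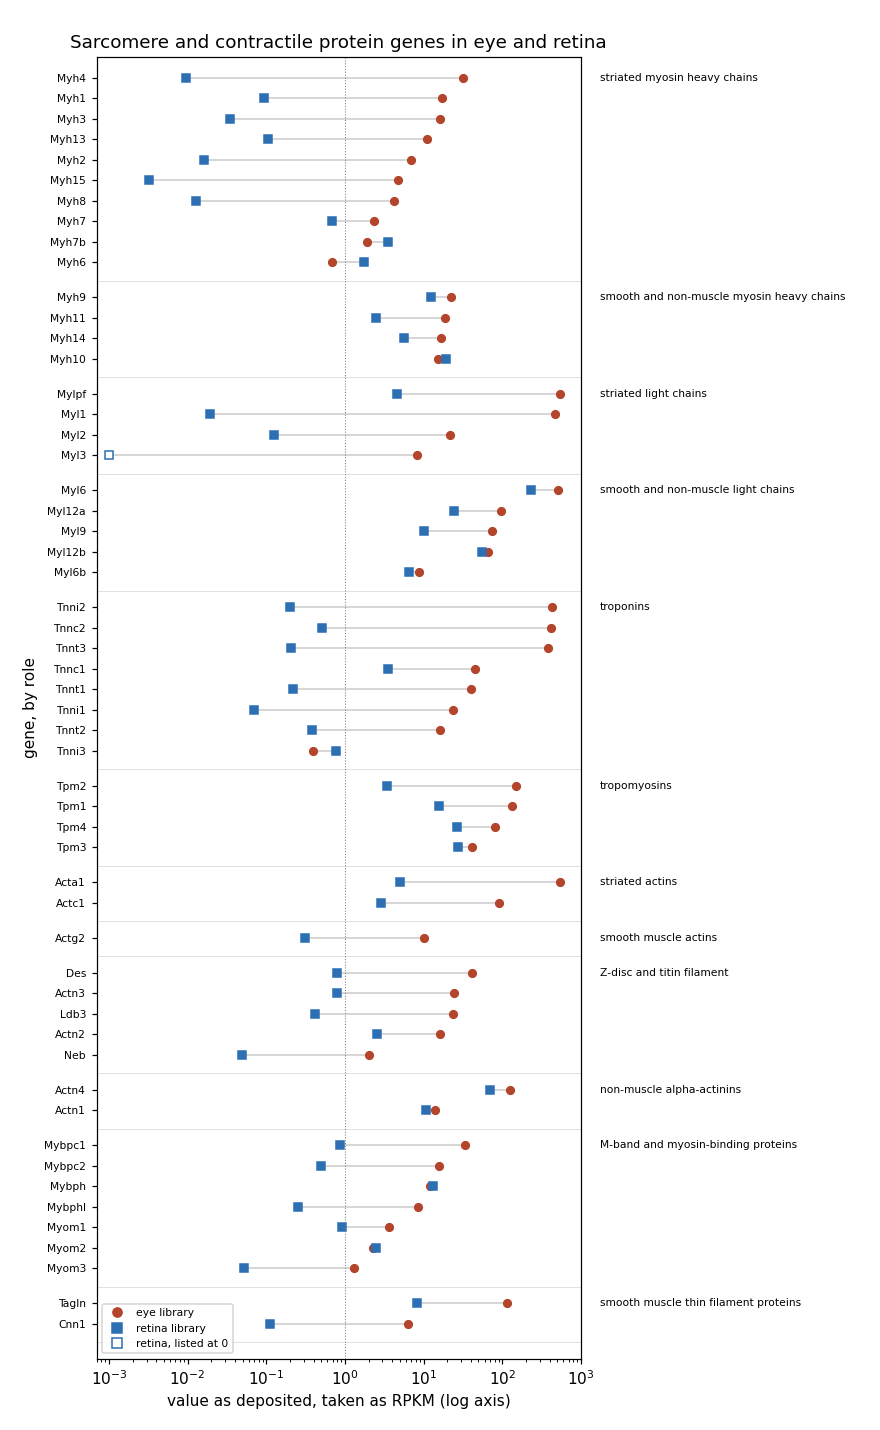
Values of the 54 members in the eye library (circles) and the retina library (squares), in RPKM on a log axis, grouped by role. The lines are long for striated muscle genes such as Myl1 (466 in eye and 0.0192 in retina) and short for non-muscle genes such as Myl12b (66.3 and 55.6); the open square is Myl3, listed at 0 in retina.

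Regulatory sequence was available for 43 of the 54 members, in the form of 49 promoters in RefSeq's table for build GRCr8. The 250 bases before each start were searched on both strands for the CArG box, known as the binding motif of serum response factor, and for the MEF2 motif, that of the MEF2 family, both used by many muscle genes. A CArG box stood in 5 of the 49 (10.2%), against 1.497% of all 33469 promoters. The MEF2 motif also stood in 5 (10.2%), against 2.96%. The E-box core CANNTG, the short motif of myogenic factors, was in 34 (69.4%), against 65.5% of all. The letters TATAAA, read on the coding strand alone, stood in 7 (14.3%), against 8.06%. A match is a description of these letters and shows no bound factor. The promoters of 6 genes with such motifs are shown, from the skeletal muscle genes Acta1, Myl1, Myh4 and Myh1 and the slow light chain gene Myl3 to the non-muscle myosin gene Myh9. All 6 genes had their higher value in eye, and no member with its higher value in retina is among them. Each reads 5′ to 3′ on the gene's strand and ends at the base before the start, and capitals mark CArG boxes, MEF2 motifs and TATAAA, none of which overlap in these windows.
Acta1, chr19:68784195-68784444, minus strand: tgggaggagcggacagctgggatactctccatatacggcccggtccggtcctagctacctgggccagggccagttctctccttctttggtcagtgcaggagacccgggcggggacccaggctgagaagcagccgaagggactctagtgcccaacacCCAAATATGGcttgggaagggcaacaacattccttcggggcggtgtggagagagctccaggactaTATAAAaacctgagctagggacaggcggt
Myl1, chr9:75897800-75898049, minus strand: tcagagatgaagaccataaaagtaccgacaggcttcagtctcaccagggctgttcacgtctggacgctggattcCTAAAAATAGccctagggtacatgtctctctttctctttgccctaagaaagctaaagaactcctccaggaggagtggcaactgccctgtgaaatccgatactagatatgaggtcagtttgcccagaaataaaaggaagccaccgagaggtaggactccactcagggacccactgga
Myh4, chr10:52421898-52422147, plus strand: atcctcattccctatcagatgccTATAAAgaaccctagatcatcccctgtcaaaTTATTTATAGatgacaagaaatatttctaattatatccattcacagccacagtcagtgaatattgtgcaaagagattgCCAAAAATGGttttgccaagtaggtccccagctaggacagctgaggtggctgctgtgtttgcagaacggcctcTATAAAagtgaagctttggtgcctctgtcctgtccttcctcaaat
Myh1, chr10:52384662-52384911, plus strand: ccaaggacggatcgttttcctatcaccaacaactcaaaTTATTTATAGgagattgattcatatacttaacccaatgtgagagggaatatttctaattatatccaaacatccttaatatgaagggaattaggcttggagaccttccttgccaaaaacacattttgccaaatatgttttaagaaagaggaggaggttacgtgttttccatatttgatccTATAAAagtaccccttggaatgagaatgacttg
Myl3, chr8:119616844-119617093, plus strand: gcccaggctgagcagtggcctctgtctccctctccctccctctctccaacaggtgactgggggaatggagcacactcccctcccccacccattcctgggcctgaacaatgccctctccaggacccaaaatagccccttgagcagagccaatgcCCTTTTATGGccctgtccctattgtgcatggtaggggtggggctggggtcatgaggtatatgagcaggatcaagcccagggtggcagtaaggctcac
Myh9, chr7:111304964-111305213, minus strand: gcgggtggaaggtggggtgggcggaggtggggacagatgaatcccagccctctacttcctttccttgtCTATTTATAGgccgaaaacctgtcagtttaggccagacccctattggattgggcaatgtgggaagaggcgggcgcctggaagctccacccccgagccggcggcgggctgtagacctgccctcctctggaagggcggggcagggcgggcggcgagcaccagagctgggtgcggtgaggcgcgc
Acta1 has its CArG box (CCAAATATGG) from 94 to 85 bases before the start and TATAAA from 29 to 24 bases before it. Myh4 has a CArG box (CCAAAAATGG) and a MEF2 motif (TTATTTATAG), and Myh1 has the same MEF2 letters. In Myl3 the CArG box reads CCTTTTATGG, and in Myl1, in 1 of its promoters, the MEF2 motif reads CTAAAAATAG. The MEF2 letters CTATTTATAG stand in front of Myh9 too, whose value differed by only 1.82-fold between the libraries. The other members with a motif were Ldb3 and Myh15 for the CArG box and Myom3 for the MEF2 motif.

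The motor of the thick filament came first. Of the 10 striated muscle myosin heavy chains, 8 were higher in eye, 1 was lower and 1 was not called. Myh4, the chain of the fastest fibres, had 31.8 RPKM in eye and 0.00959 in retina, a 3313-fold difference (interval 1133 to 16069, with as few as 3 reads in retina). Myh1, of fast fibres, had 17.3 and 0.0926 (186-fold, interval 129 to 279). Its promoter shares the MEF2 letters of Myh4. Myh2, of fast oxidative fibres, was lower than both in eye, with 7.0, and had 0.0159 in retina.

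Chains that most adult limb muscles lack were well represented in eye. Myh3, the embryonic chain, had 16.3 RPKM in eye and 0.0351 in retina (464-fold, interval 259 to 931). Myh8, the perinatal chain, had 4.27 and 0.0129. Myh13, the chain known for its restriction to extraocular and a few related muscles, had 11.02 and 0.106 (104-fold, interval 73.3 to 152). Myh15, an ancient chain also found in extraocular muscle, had 4.70 in eye and 0.00324 in retina, the latter from as few as 1 read. The interval of its 1453-fold difference ran from 260 to 57446.

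The slow and cardiac chains had another pattern. Myh7, the slow and ventricular chain, had 2.38 RPKM in eye and 0.686 in retina, only 3.46-fold higher in eye (interval 2.92 to 4.11). Myh7b, a chain related to the slow form, had 1.90 in eye and 3.51 in retina. It was not called, and its retina value was 1.85 times that in eye (interval 1.63 to 2.11). With equal summed values in both libraries Myh7b was called lower in eye (log2 fold -1.46). Myh6, the atrial chain, had 0.691 in eye and 1.74 in retina and was 2.51-fold lower in eye (interval 1.59 to 4.14). With 1 added to each value in place of 0.1, Myh6 was not called (log2 fold -0.70). These were the striated chains with the most reads in retina: as few as 1094 for Myh7b, 211 for Myh7 and 107 for Myh6, against 32 or fewer for each of the other 7. In the reference assembly Myh7b overlaps Gss and Trpc4ap, which had 15.1 and 70.4 RPKM in retina, and no source used here states whether counting used strand. The part of shared reads in the Myh7b value was not tested. Other members overlap genes too, among them Tnni2 (with Ctsd and Syt8), Myh10 (with Ndel1), Actn4 (with Capn12), Myh7 and Myl12a. Shared reads were not tested for these either.

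As a share of the summed RPKM of the 10 striated chains (97.3 in eye and 6.21 in retina), the make-up differed between the libraries. Myh4 held 32.7% in eye, followed by Myh1 with 17.7%, Myh3 with 16.7%, Myh13 with 11.3% and Myh2 with 7.20%. Counting intervals of neighbouring levels in this order overlapped for Myh1 and Myh3 and for Myh15 and Myh8, and for no other neighbours. In retina Myh7b held 56.6%, Myh6 28.0% and Myh7 11.04%. Grouped after the values were seen, the fast chains Myh1, Myh2 and Myh4 held 57.6% in eye and 1.90% in retina. The developmental chains Myh3 and Myh8 held 21.1% and 0.772%, and Myh13 with Myh15 held 16.2% and 1.76%. Myh6, Myh7 and Myh7b together held 5.10% in eye and 95.6% in retina. Myh3, Myh2, Myh1, Myh4, Myh8 and Myh13 follow one another in the reference assembly, as do Myh6 and Myh7. They are close paralogs, and no source used here states how shared reads were treated, so each of these values is uncertain.

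**Figure D2:**
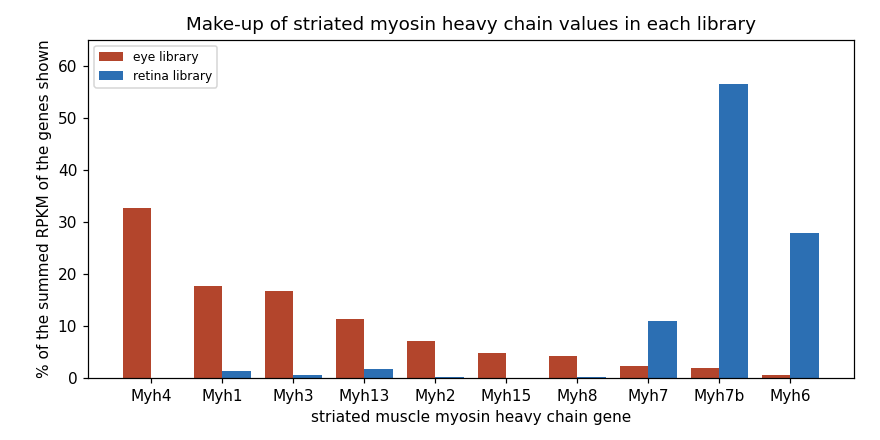
Share of each of the 10 striated muscle myosin heavy chains in their summed RPKM, in percent, for the eye library and the retina library. Myh4 has the tallest eye bar (32.7%) and Myh7b the tallest retina bar (56.6%).

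The light chains bind the neck of the myosin head. All 4 light chains placed in the striated group were higher in eye. Mylpf, the fast regulatory chain, had 540 RPKM in eye and 4.66 in retina (116-fold, interval 88.2 to 156). Myl1, the fast essential chain, had 466 in eye and 0.0192 in retina. As few as 1 read stood behind the retina value of Myl1, and the interval of its 24218-fold difference ran from 4346 to 956642. By value, both stood high among all genes in eye, at ranks 48 and 59. Myl2, the slow and ventricular regulatory chain, was far less abundant in eye, with 21.9, and had 0.125 in retina (175-fold, interval 47.7 to 1454). Myl3, the slow and ventricular essential chain, had 8.25 in eye and was listed at 0 in retina. Against the limit of 3 reads that a count of 0 allows, with the shortest length that fits its value, Myl3 was at least 11.7-fold higher in eye. With counting error of its 19 eye reads included, the lower end of the exact interval was 8.64.

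Troponin C, I and T bind calcium, inhibit the filament and tie the complex to tropomyosin. Of 8 troponin genes, 7 were tested and all 7 were higher in eye. The fast forms were nearly level with one another there: Tnni2 had 429 RPKM, Tnnc2 420 and Tnnt3 387. In retina Tnni2 had 0.198, Tnnc2 0.518 and Tnnt3 0.205. Their folds were 2163 for Tnni2 (interval 387 to 85511, as few as 1 read in retina), 811 for Tnnc2 (interval 474 to 1524) and 1893 for Tnnt3 (interval 960 to 4387). These intervals overlapped, so that no order among the fast troponins can be read from them.

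The slow troponins had lower values in eye. Tnnc1, shared by slow and cardiac muscle, had 45.3 RPKM in eye and 3.53 in retina, a 12.8-fold difference (interval 10.3 to 16.2). Tnnt1 had 40.4 and 0.219 (185-fold, interval 78.6 to 571), and Tnni1 had 23.9 and 0.0703 (340-fold, interval 116 to 1653). Of the 3 slow forms, Tnnc1 thus had by far the highest value in retina. Tnnt2, the cardiac troponin T, had 16.2 in eye and 0.386 in retina. Tnni3, the cardiac troponin I, stayed below 1 in both libraries, with 0.399 in eye and 0.766 in retina (as few as 9 and 32 reads), and was not tested.

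The fast form of a protein, or for actin the skeletal form, was set against a partner gene within the eye library. The partner was the slow or cardiac form, except for Actn3, whose partner Actn2 is found in all sarcomeres. The fast forms had the higher value in 7 of 8 pairs. The ratio of Myl1 to Myl3 was 56.4 (interval 36.1 to 93.8), and that of Mylpf to Myl2 24.6 (interval 21.3 to 28.7). Among the troponins it was 18.0 for Tnni2 over Tnni1 (interval 16.2 to 19.9), 9.59 for Tnnt3 over Tnnt1 (interval 8.76 to 10.5) and 9.28 for Tnnc2 over Tnnc1 (interval 8.54 to 10.1). The actin pair, Acta1 over Actc1, stood at 6.13 (interval 5.92 to 6.34) and the alpha-actinin pair, Actn3 over Actn2, at 1.53 (interval 1.43 to 1.65). Mybpc2 over Mybpc1 was the exception, at 0.461 (interval 0.434 to 0.490): the slow form of myosin-binding protein C had 33.8 RPKM in eye against 15.6 for the fast form.

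Within the retina library several of these ratios were lower, and others were imprecise. The ratio of Tnnc2 to Tnnc1 was 0.147 (interval 0.0753 to 0.264) and that of Actn3 to Actn2 0.316 (interval 0.254 to 0.391), so both had the lower value for the fast form. Acta1 over Actc1 was 1.74 (interval 1.47 to 2.06). The intervals for Tnni2 over Tnni1 (0.0538 to 35.2) and Tnnt3 over Tnnt1 (0.270 to 3.63) included 1. Mylpf over Myl2 was 37.1 in retina (interval 9.77 to 315), and Mybpc2 over Mybpc1 was 0.566 (interval 0.432 to 0.737). Both of these intervals overlapped those in eye. So did that of Tnni2 over Tnni1, which rests on as few as 1 and 3 reads in retina.

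**Figure D3:**
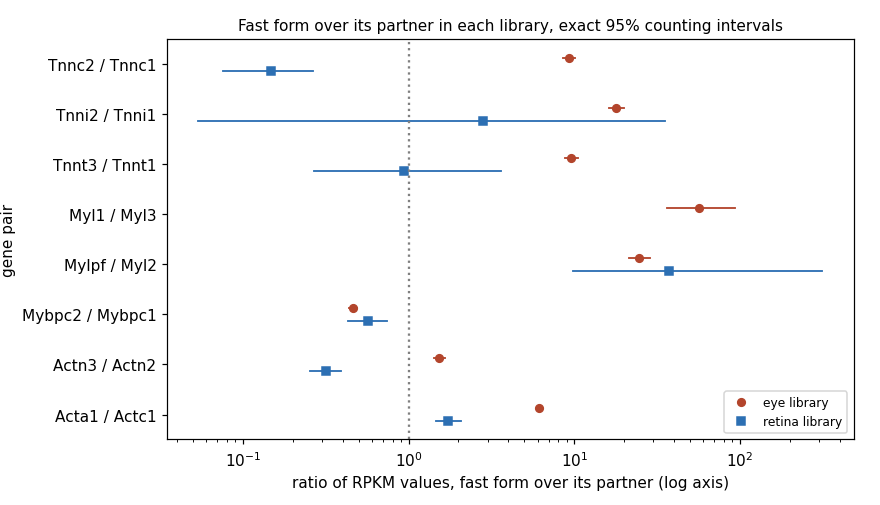
Ratio of the RPKM of the fast form (for actin, the skeletal form) to that of its partner (the slow or cardiac form, or Actn2 of all sarcomeres), for 8 gene pairs in the eye library (circles) and the retina library (squares), on a log axis, with exact 95% counting intervals as bars. In eye, 7 of 8 ratios lie above 1, led by Myl1 over Myl3 at 56.4; no retina ratio is drawn for that pair since Myl3 is listed at 0.

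Thin filament genes ranged from over 100-fold higher in eye to not called. Acta1, skeletal alpha-actin, was the most abundant member in eye, with 551 RPKM, and had 5.06 in retina (109-fold, interval 98.4 to 121). Actc1, cardiac alpha-actin, had 90.0 and 2.91 (30.9-fold, interval 27.0 to 35.6). Actg2, an enteric smooth muscle actin, had 10.2 and 0.311 (32.9-fold, interval 19.6 to 59.7). Actin genes are nearly identical in their coding parts, and the treatment of shared reads is not stated, so these values are uncertain. Of the tropomyosins, which line the groove of the actin filament, Tpm2, of skeletal and smooth muscle, had 148 in eye and 3.45 in retina (42.9-fold). Tpm1, of muscle and many other cells, had 132 and 15.7 (8.36-fold), and Tpm4, mainly non-muscle, had 81.8 and 26.8 (3.06-fold). Tpm3, of slow muscle and non-muscle cells, was not called, with 40.8 and 27.5 (1.48-fold).

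The retina values of the abundant fast muscle genes were not a fixed share of their eye values. Acta1 in retina was at 0.918% of its eye value and Mylpf at 0.863%, whereas Tnnc2 was at 0.123%, Tnnt3 at 0.0528%, Tnni2 at 0.0462% and Myl1 at 0.00413%. The fold intervals of Acta1 and Mylpf overlapped each other and lay apart from the rest. Those of the fast troponins overlapped, and those of Tnnt3 and Tnni2 also overlapped that of Myl1. Tnnc2, Tnnt3, Tnni2 and Myl1 had as few as 13, 8, 1 and 1 reads in retina. The Acta1 value is uncertain because of shared reads, as said above. Among 24 striated myosins, troponins and actins, 18 had a value below 1 in retina. The 6 others were Acta1, Mylpf, Tnnc1, Myh7b, Actc1 and Myh6, from 5.06 down to 1.74 RPKM.

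Z-disc and filament-length proteins anchor and measure the filaments, and all 5 members tested were higher in eye. Des, the muscle intermediate filament protein desmin, had 41.0 RPKM in eye and 0.790 in retina (51.9-fold, interval 42.0 to 64.8). Ldb3, a Z-disc adaptor, had 23.6 and 0.412 (57.4-fold), and Actn3, the fast-fibre alpha-actinin, had 24.5 and 0.803 (30.5-fold). Actn2, the alpha-actinin of all sarcomeres, was only 6.30-fold higher, with 15.98 and 2.54 (interval 5.62 to 7.07). Neb, the giant ruler protein nebulin, had 2.03 and 0.0495 (40.9-fold, interval 25.2 to 71.0).

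Of the 7 M-band and myosin-binding members, 5 were higher in eye and 2 were not called. Mybpc1 had 33.8 RPKM in eye and 0.877 in retina (38.6-fold), and Mybpc2 had 15.6 and 0.496 (31.4-fold). Mybph, myosin-binding protein H, had about equal values, 12.2 in eye and 13.2 in retina, and the interval of the fold (0.841 to 1.02) included 1. It overlaps Adora1, an adenosine receptor gene, in the reference assembly, which had 17.4 in eye and 29.1 in retina, and the part of shared reads was not tested. Myom2, an M-band protein of fast fibres, named after its values were seen, also had about equal values, 2.29 and 2.52 (interval 0.786 to 1.05). With lens crystallins left out of the totals, Mybph and Myom2 had the slightly higher value in eye. The other 3, Mybphl, Myom1 and Myom3, had values from 1.30 to 8.47 in eye and from 0.0522 to 0.916 in retina.

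Smooth muscle genes were higher in eye by smaller folds than most fast muscle genes. Myh11, the smooth muscle myosin heavy chain, had 18.7 RPKM in eye and 2.46 in retina (7.60-fold, interval 7.03 to 8.21). Tagln, the actin-binding protein transgelin, had 115 and 8.37 (13.7-fold), and Myl9, the smooth muscle regulatory light chain, had 73.7 and 10.03 (7.35-fold). Cnn1, calponin, had 6.44 and 0.112 (57.4-fold, interval 27.4 to 144). Markers of other cells that can hold such genes differed as well. Of the smooth muscle marker list, all 5 had a value and 3 of 4 tested were higher in eye, against 17.8% of all genes. These 5 markers summed to 18.8 in eye and 5.48 in retina, and all 5 also stand in the partner lists below. The 3 pericyte markers summed to 68.2 and 24.3, with both tested higher in eye, against the same share of all genes. All 3 fibroblast markers were higher, against that share too, summing to 1355 and 2.13. Of 2 myoepithelium markers only Krt14 had a value, 40.4 in eye and 0.0264 in retina (interval of the fold 423 to 12639, as few as 2 reads in retina). The part of these cell types in the values was not tested.

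Non-muscle members differed little or by small folds. Myl6, the essential light chain of smooth and non-muscle myosin, was the most abundant member in retina, with 235 RPKM, and had 508 in eye (2.16-fold, interval 2.10 to 2.22). Its partner Myl12a had 95.4 in eye and 24.1 in retina (3.95-fold), while Myl12b, its neighbour in the assembly and close paralog, was not called, with 66.3 and 55.6 (1.19-fold). Myl6b, grouped by role with the smooth and non-muscle light chains and not with the striated ones, had 8.65 and 6.62 and was not called. Of the non-muscle heavy chains, Myh14 was higher in eye, with 16.7 and 5.65 (2.96-fold), and Myh9, with 22.6 and 12.4, was not called. Myh10, a form abundant in neurons, had its higher value in retina, 19.4 against 15.2 in eye, 1.28 times as high (interval 1.23 to 1.33), and was not called either. The alpha-actinins of the cytoskeleton, Actn4 (125 and 70.5) and Actn1 (13.8 and 10.9), were not called. Calls near the threshold moved with the scaling: with equal summed values in both libraries Myl6, Myh14 and Tpm4 were not called, and Myl12b, Myl6b, Actn1 and Tpm3 had their higher value in retina. With lens crystallins left out of the totals, Myh9 (log2 fold 1.03) and Actn4 (1.01) were called higher in eye.

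**Figure D4:**
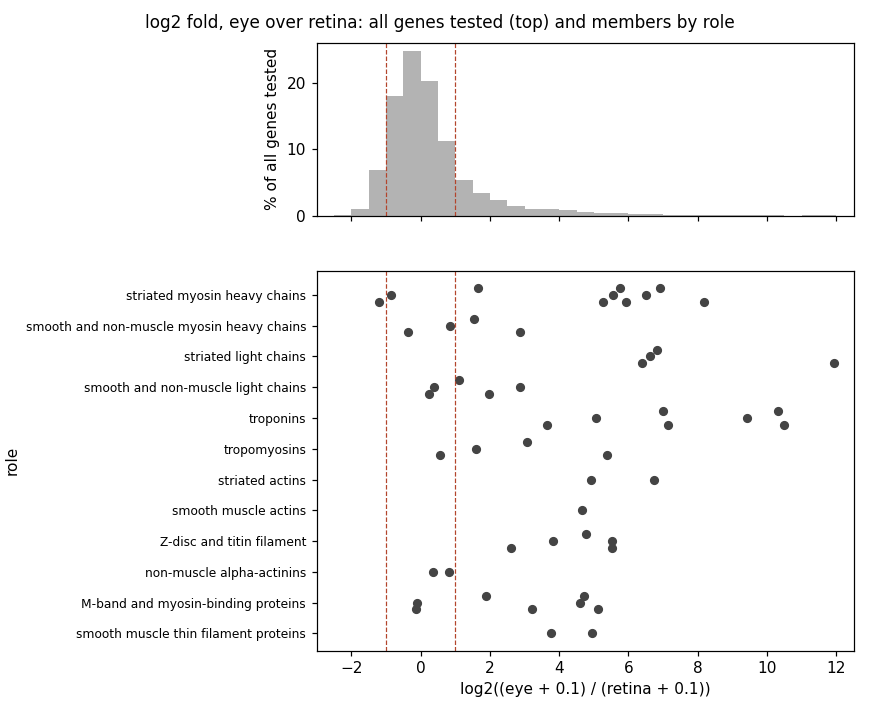
Top, distribution of log2((eye + 0.1) / (retina + 0.1)) over the 13259 genes tested, in percent of genes per bin. Bottom, the same quantity for the 53 members tested, a point per gene, by role; dashed lines mark a fold of 2. The 7 troponins and 4 striated light chains tested lie right of the lines, and Myh6 lies left of them.

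Genes that are no members but relate to the sarcomere, to smooth muscle or to the control of muscle genes were read from 4 lists. Of the Z-disc and thin filament partners, 18 of 21 tested were higher in eye and 0 lower, against 17.8% and 7.95% of all genes, with a median log2 fold of 3.12, against -0.01. Where a value of 5 was required, 10 of these partners and 5 of the assembly genes described next were higher, since fewer were tested. With equal summed values 1 of the partners was lower. Fhl1, a LIM protein, had 85.8 RPKM in eye and 35.3 in retina (2.43-fold), Pdlim3 22.1 and 3.71 (5.96-fold), and Myoz1, the fast-fibre calsarcin, 43.0 and 0.0310 (1388-fold, interval 248 to 54888, as few as 1 read in retina). Of the genes of sarcomere assembly and turnover, 9 of 10 were higher and 0 lower, against the same shares of all genes, with a median of 3.72. Capn3, the muscle calpain, had 15.3 and 6.63 (2.31-fold), and Klhl41, listed under the older symbol Kbtbd10, 17.0 and 1.30 (13.1-fold). Trim54, a ubiquitin ligase of the sarcomere, had 8.04 in eye and was listed at 0 in retina, at least 177-fold higher in eye against the limit of 3 reads, and the lower end of its exact interval was 143.

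Of the smooth muscle partners, 6 of 8 were higher in eye and 0 lower, against 17.8% and 7.95% of all genes, with a median log2 fold of 1.91. In that list, too, equal summed values made 1 gene lower. Cnn3, a calponin of many cell types, had 142 and 68.2 RPKM (2.08-fold) and Tagln2 71.4 and 15.3 (4.67-fold). Tagln3, a transgelin of neurons, had 104 in eye and 161 in retina and was not called. Of the myogenic regulators, 2 of 4 tested were higher (Myf6 and Myog) and 0 lower, against 17.8% and 7.95% of all genes, with a median of 1.74. Myf6 and Myog had low values: with 1 added to each value the median was 0.53, and where a value of 5 was required 0 were higher and the median was -0.23. With 0.01 added the median was 2.35. With no minimum value 3 regulators were higher and the median was 3.15. The third was Myod1, with 0.878 RPKM in eye and 0.00988 in retina (as few as 48 and 1 reads), which was otherwise not tested. Myf6, a myogenic factor of mature fibres, had 3.16 and 0.102 (30.9-fold) and Myog, myogenin, 1.28 and 0.0133 (96.2-fold, interval 16.5 to 3873). Mef2c, of the MEF2 family, had 17.6 in eye and 22.5 in retina, and Srf, which binds the CArG box, had 10.7 and 11.6, and neither was called. The skeletal muscle markers with a value numbered 5, of which 4 were higher in eye, against 17.8% of all genes. Pvalb, the calcium buffer parvalbumin, had 363 in eye and 60.01 in retina (6.04-fold), Mb (myoglobin) 389 and 0.224 (1738-fold), Ckm, the muscle creatine kinase, 339 and 2.05 (165-fold) and Casq1, a calcium store protein, 86.8 and 2.02 (43.0-fold). Ryr1, the calcium release channel of muscle, had 2.68 in eye and 2.40 in retina (1.12-fold), which is no call; its row bears the synonym Ryr1l.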

How the data were processed

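RNA sequencing values of rat eye and retina were analysed as the authors deposited them, 1 column per tissue, and the tissue in a sample's title set its group. The deposited values are taken as RPKM from the values themselves. GSNAP, HTSeq and build rn4 are named per the submitters' processing notes. Their versions, settings and annotation: not given in the sources used here.

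There were 14533 rows per file; the 7 marked ND were dropped, and no member was among them. Of repeated names the row with most decimals was kept. Folds are ratios of the deposited values. Genes that reached a value of 1 in a library were tested, and called where log2((eye + 0.1) / (retina + 0.1)) passed a fold of 2 in size. Adding 0.1 understates the change of low genes. Reads were recovered as the smallest whole numbers that fit both values, for all 54 members and 96.5% of genes. True reads may be multiples of them, which alone would make the intervals too wide. Without molecular identifiers, reads are no independent molecules, which would make them too narrow. The intervals cover counting error only, and the net direction is not known. The recovery was tested on simulated data.

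Members and lists were chosen with earlier results of these data known. Members that reached a value of 10 in a library were named, and below it those in groups of 5 or fewer, called lower, or used in a ratio. Of each further list the 3 genes with the highest mean were named, and Myog and Myod1 were named besides, after their values were seen. All skeletal muscle markers with a value were named. The letters TATAAA and the classes of myosin heavy chains were added after the data were seen. Promoters came from RefSeq's table for GRCr8, whose build differs from rn4. Python 3.11.15, pandas 2.3.3 and scipy 1.17.1 were used.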

Additional observations from a re-analysis of the deposited data

How the results depend on the processing

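The number of members higher in eye, 42 as reported, stayed within 1.5 times of that under every alternative run. The number lower, 1 as reported (Myh6), was 2 with equal summed values. It was 0 at a fold of 4, 0 where a value of 5 was required and 0 with 1 added. The median log2 fold of the members, 4.65 as reported, was 2.98 with 1 added, 4.95 with 0.01 added, 4.63 with no minimum, 4.84 with a minimum of 5, 4.83 with totals without lens crystallins, 4.66 with the median of ratios, 4.02 with equal summed values and 4.77 without symbols that end in a letter. With equal summed values, which moved the median of all genes from -0.01 to -0.64, Myh14, Myl6 and Tpm4 were no longer called, Myh7b was lower in eye, and Myl12b, Myl6b, Tpm3 and Actn1 changed sign. With totals without lens crystallins, which moved that median to 0.16, Myh9 and Actn4 were higher in eye, and Mybph and Myom2 changed sign. Over all genes, 69.2% of calls were higher in eye as reported, 82.4% without lens crystallins in the totals, 26.4% with equal summed values and 99.0% at a fold of 4. With a minimum of 5, which tests fewer genes, 10 Z-disc and thin filament partners, 5 assembly genes and 0 myogenic regulators were higher, and the median of the regulators turned to -0.23. With equal summed values 1 Z-disc partner and 1 smooth muscle partner were lower. Ratios between fast forms and their partners within a library do not depend on the scaling. In the 200 bases before the start, the MEF2 motif stood in 4 member promoters and the CArG box in 5. No paired analysis was possible because each tissue has a single column of values. Where retina reads were 3 or fewer, depth limits the fold to a wide interval.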
